A study of Homo sapiens with 6 samples.

Results

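AP-1 is a family of dimeric transcription factors, and 9 of its genes were followed here in RKO cells that carried a hairpin against a circular RNA: the FOS type (FOS, FOSB, FOSL1 and FOSL2), the JUN type (JUN, JUNB and JUND) and the ATF2 type (ATF2 and ATF7). They were taken by gene symbol from the authors' annotated array table, and all 9 were measured, out of 15894 genes with a probe set of their own. They held 31 probe sets, none of which was shared with another gene symbol. FOSL1 had 6 probe sets, ATF7 had 5, FOS, FOSL2, JUN and ATF2 had 4 each, FOSB had 2, and JUNB and JUND had 1 each. For each gene the probe set with the highest mean over the 6 arrays is called the main one.

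RKO is an established human colon carcinoma cell line. In the shCIRC group, RKO cells carried a short hairpin RNA directed at hsa_circ_0064559, and in the shEV group they carried the control vector, which the labels call both an empty vector and a nonsense hairpin. The labels name lipid transfection, as do the study's methods in one place, where they also speak of stably transfected cells. Elsewhere the methods speak of viral transduction, so the route of delivery is not settled here. Each arm is 1 construct in 1 line. Total RNA, 6 µg per sample, was hybridized to PrimeView arrays, with 3 arrays per group. The circular RNA itself was not measured here, so its knockdown could not be checked on these arrays. The study reports, by qRT-PCR, a lower level of it in shCIRC than in shEV cells of this line. The comparison here is between cells with the shCIRC hairpin and cells with the control, and which form the control had is not settled. The sequences that the labels give for shCIRC and shEV are printed because they are the only difference named between the groups:

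shCIRC: tttattatagcctgccacagc

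shEV: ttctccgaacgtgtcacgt

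AP-1 proteins bind DNA as pairs through a basic leucine zipper. JUN proteins can pair with themselves or with FOS proteins, while FOS proteins need a JUN partner, and these pairs prefer the TPA response element (TRE). ATF2 and ATF7 pair with themselves or with JUN and prefer the closely related cyclic AMP response element (CRE). FOS, FOSB, JUN and JUNB are immediate early genes that growth factors and stress switch on for a short time, FOSL1 follows later and depends on lasting ERK signaling, and the kinases JNK and p38 activate JUN and ATF2 by phosphorylation. In colon tumors AP-1 is known for its part in proliferation, invasion and the response to stress.

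Short sequence elements were searched in the promoters of the members. A variant of the TRE was found in JUN and a CRE in JUND. In FOS, FOSB and JUNB only a TATA box was found, which is not one of the AP-1 elements described above. The stretches below are shown because they hold the elements that were found ahead of the members. The sequences are from RefSeq (GRCh38.p14), and 7 of the 9 members had a promoter window, which runs from 250 bases before the start of the gene to 50 after it. Capitals mark the JUN-type variant of the TRE in JUN (TGACATCA), the CRE in JUND (TGACGTCA) and the TATA box (TATAAA) in FOS, FOSB and JUNB.

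JUN, chr1:58784088-58784137, minus strand: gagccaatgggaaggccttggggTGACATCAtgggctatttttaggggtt

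JUND, chr19:18281793-18281842, minus strand: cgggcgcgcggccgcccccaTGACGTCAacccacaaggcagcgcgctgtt

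FOS, chr14:75278768-75278817, plus strand: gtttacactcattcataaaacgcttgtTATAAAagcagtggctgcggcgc

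FOSB, chr19:45467936-45467985, plus strand: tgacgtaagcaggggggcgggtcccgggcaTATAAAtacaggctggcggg

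JUNB, chr19:12791426-12791475, plus strand: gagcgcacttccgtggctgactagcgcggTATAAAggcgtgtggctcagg

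Counted from the start of the gene, the JUN-type variant of JUN began at position -67 and the CRE of JUND at position -200. A TRE (TGACTCA or TGAGTCA) was found in the window of FOSL2, at position 5, and in none of the other 6. Of all 35116 windows, 4.95% held a TRE, 1.85% a CRE, 2.61% the JUN-type variant and 7.33% the TATA box. The first 3 motifs were searched on both strands (TGATGTCA is the JUN-type variant on the other strand) and cannot match the same letters, and the TATA box was searched on the gene's strand only. A match describes the sequence and does not show that a factor binds there.

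The members did not move as a block. FOSL1 (Fra-1) fell to 37.0% of its level in shEV cells, and FOSL2 fell slightly. JUNB, FOS, ATF2 and JUND rose, by 1.54-fold in JUNB and 1.14-fold in JUND. JUN, FOSB and ATF7 did not pass the test with their main probe sets. With limma, and an adjusted p under 0.05 (Benjamini-Hochberg, all genes) as the threshold, 4 of the 9 members were called higher in shCIRC cells and 2 lower, and 3 were not called. In bulk RNA, less RNA per cell and fewer cells that express a gene cannot be told apart. Over all 15894 genes, 22.8% were higher and 24.7% were lower, so changes of this kind were common in the comparison. The median log2 fold change was 0.10 over the 9 members and -0.0045 over all genes.

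The 3 arrays of shCIRC lay on one side of the 3 of shEV in 8 of the 9 members, all but ATF7, and in 56.0% of all genes. For those 8 the exact permutation test gave a two-sided p of 0.1, the smallest that 3 arrays against 3 allow. Nothing in the labels tells if the 3 arrays of a group stand for separate cultures, and the p-values therefore refer to array-to-array spread that may be technical.

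**Figure D1:**
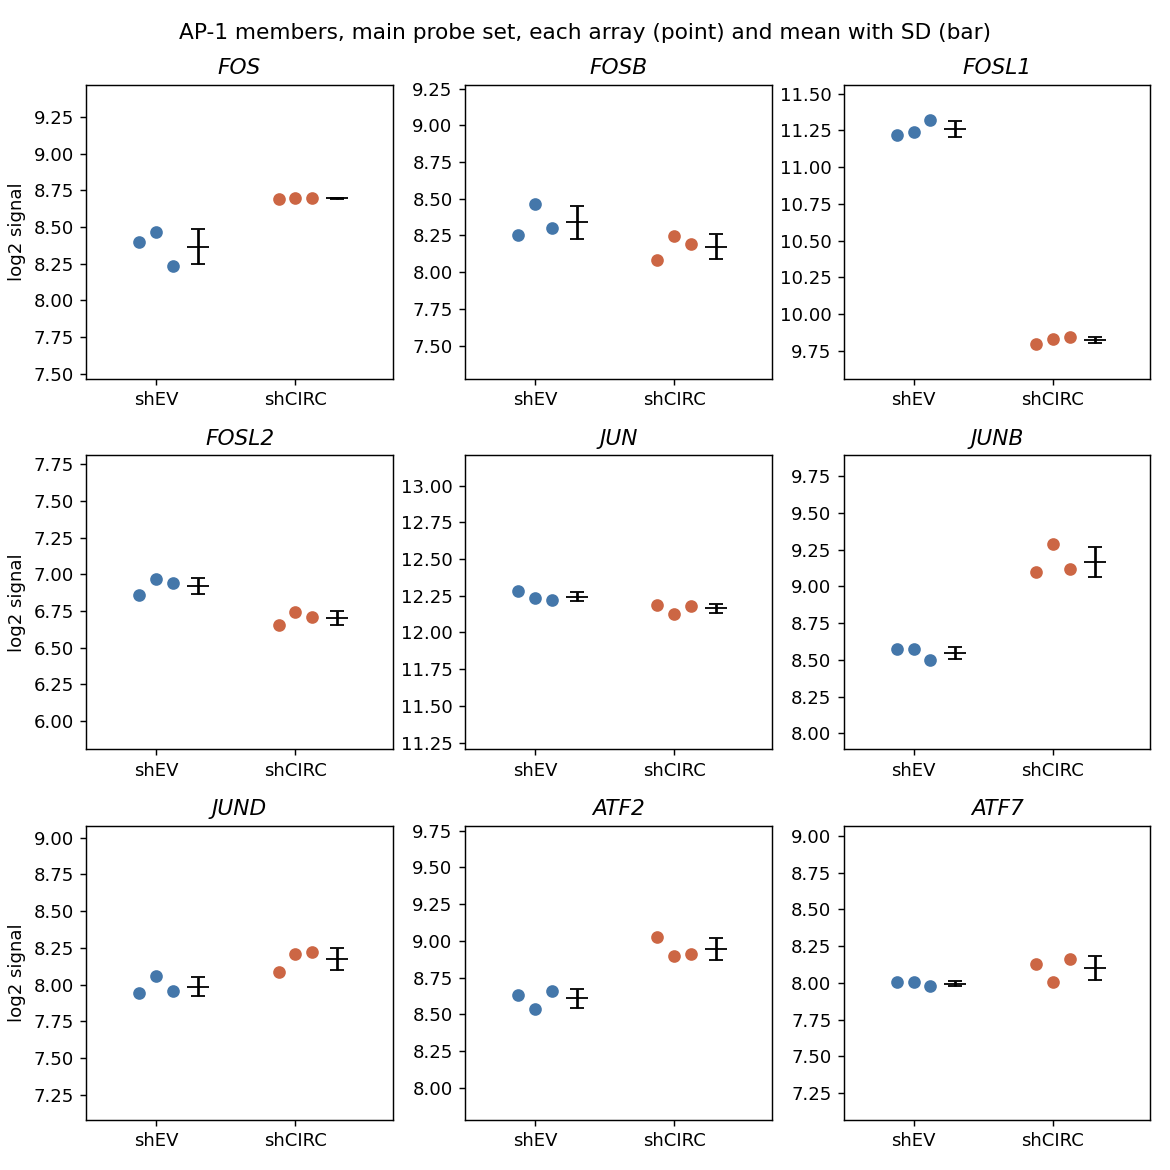
Log2 signal (vertical axis, every panel spanning 2 log2 units) of the main probe set of each of the 9 genes on the 3 shEV and 3 shCIRC arrays. Points are arrays and the bars beside them give the mean and SD. FOSL1 shows the widest gap between the groups (11.26 against 9.82), and in ATF7 the groups overlap.

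Among the FOS type, FOSL1 had the greatest change of all 9 members. FOSL1 encodes Fra-1, a FOS protein without a strong activation domain of its own that is tied to motility and invasion of carcinoma cells. Its main probe set had log2 signals of 11.22, 11.24 and 11.32 on the shEV arrays and 9.80, 9.83 and 9.84 on the shCIRC arrays. The arrays within each group lay close together, and the lowest shEV array was 1.38 above the highest shCIRC array on the log2 scale. The log2 fold change was -1.44 (standard error [SE] 0.04, 95% confidence interval -1.53 to -1.35, limma, adjusted p = 2.72e-06, with 3 arrays in each group). Ordered by log2 fold change from the largest fall, FOSL1 ranked 22 of 15894 genes.

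All 6 probe sets of FOSL1 were lower, but by different amounts. The 3 whose targets span the same stretch of the gene had log2 fold changes of -1.44, -1.36 and -1.35. The other 3 had -0.92 (SE 0.04), -0.55 and -0.47 (SE 0.05 for each). The last of these was also far outside its spread, with log2 signals of 8.62, 8.65 and 8.72 in shEV and 8.11, 8.22 and 8.24 in shCIRC. The fall of FOSL1 was thus present in every probe set, and its size depended on the probe set. The deposited annotation places the target of the main probe set on chromosome 11 from 65659691 to 65667997, minus strand, in a genome build that the sources used here do not name.

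FOS, the founding member of the family and a classic immediate early gene, moved the other way. Its main probe set had log2 signals of 8.40, 8.47 and 8.24 in shEV and of 8.69, 8.70 and 8.70 in shCIRC. All shCIRC arrays lay above all shEV arrays, and the shEV arrays were the more scattered. The log2 fold change was 0.33 (SE 0.06, 95% confidence interval 0.19 to 0.47, limma, adjusted p = 0.0034), a 1.26-fold rise. The other 3 probe sets of FOS rose more, with log2 fold changes of 0.41, 0.57 and 0.60, and in each of the 4 the groups did not overlap.

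FOSL2 encodes Fra-2, the closest relative of Fra-1. Its main probe set had log2 signals of 6.86, 6.97 and 6.94 in shEV and 6.65, 6.74 and 6.71 in shCIRC. Every shCIRC array was below every shEV array, and the log2 fold change was -0.22 (SE 0.04, limma, adjusted p = 0.00435). It was still called lower after quantile normalization again (-0.20), with arrays centred on their median (-0.19) and after cyclic loess (-0.20). Relative to GAPDH, which itself had -0.29, the value was 0.072 and did not pass. The other 3 probe sets of FOSL2 had log2 fold changes of -0.27, -0.10 and 0.08, and none passed (lowest in limma across probe sets, adjusted p = 0.0573). The mean of its probe sets passed, with -0.13 (limma, adjusted p = 0.0348).

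FOSB, another immediate early gene of the FOS type, was not called, but lay near the threshold. Its main probe set had log2 signals of 8.25, 8.47 and 8.30 in shEV and 8.08, 8.25 and 8.19 in shCIRC. The groups did not overlap, but the highest shCIRC array was only 0.0048 below the lowest shEV array. The log2 fold change was -0.17 (95% confidence interval -0.33 to -0.0025, limma, adjusted p = 0.0907). The other probe set had 0.09 (limma across probe sets, adjusted p = 0.154), so the 2 differed in sign, and relative to GAPDH the main one had 0.13 and did not pass either. The main probe set was called lower, with the same log2 fold change of -0.17, when limma was run with trend and robust (adjusted p = 0.0280) or on genes above the median signal (adjusted p = 0.0265). It was also called lower with the replicate number as a block (limma, adjusted p = 0.0197).

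Among the JUN type, JUNB showed the largest rise. JUNB is an immediate early gene whose protein is a weaker activator than JUN and can restrain proliferation. Its 1 probe set had log2 signals of 8.57, 8.57 and 8.50 in shEV and 9.10, 9.29 and 9.12 in shCIRC. The shCIRC arrays lay at least 0.52 above the shEV arrays on the log2 scale. The log2 fold change was 0.62 (SE 0.06, 95% confidence interval 0.48 to 0.76, limma, adjusted p = 1.47e-04), and JUNB ranked 379 of 15894 genes from the largest rise.

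JUND, the JUN protein that is present in most cells without stimulation, rose slightly. It had log2 signals of 7.94, 8.06 and 7.96 in shEV and 8.09, 8.21 and 8.22 in shCIRC. The groups did not overlap, but they lay only 0.03 apart. The log2 fold change was 0.19 (SE 0.05, limma, adjusted p = 0.0226). This call did not hold in the methods' t-test once adjusted over all genes (adjusted p = 0.0667), an adjustment that the study's methods do not name. It also did not hold without shEV replicate 1, shEV replicate 3, shCIRC replicate 2 or shCIRC replicate 3 (limma, adjusted p between 0.0692 and 0.0761). The probe sets of JUNB and JUND carry the array maker's suffix for sets in which some probes can also match other transcripts, and neither gene has a further probe set to compare.

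JUN itself, the partner that many AP-1 dimers share, did not pass with its main probe set. Its main probe set had log2 signals of 12.28, 12.23 and 12.22 in shEV and 12.18, 12.13 and 12.18 in shCIRC. The groups did not overlap and lay 0.03 apart, and the log2 fold change was -0.08 (95% confidence interval -0.16 to 0.00020, limma, adjusted p = 0.0955). Each of the other 3 probe sets was lower by the test over all probe sets, with log2 fold changes of -0.09, -0.10 and -0.25. JUN was also called lower with 2 other scalings of the arrays, with a log2 fold change of -0.10 after a further quantile normalization (limma, adjusted p = 0.0346) and -0.12 after cyclic loess (limma, adjusted p = 0.0208), but it was higher, with 0.21, when each array was set relative to GAPDH (limma, adjusted p = 0.00175).

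Of the ATF2 type, ATF2 rose in every probe set. ATF2 is a stress factor that waits in an inactive form until JNK or p38 phosphorylates it, so its activity is set largely on the protein. The main probe set had log2 signals of 8.63, 8.54 and 8.66 in shEV and 9.03, 8.89 and 8.91 in shCIRC. The groups lay 0.24 apart, with a log2 fold change of 0.33 (95% confidence interval 0.21 to 0.46, limma, adjusted p = 0.00159). The other 3 probe sets rose more, by 0.53, 0.57 and 0.93 on the log2 scale. The set with 0.93 (SE 0.08) had log2 signals of 6.93, 6.74 and 6.86 in shEV and 7.86, 7.62 and 7.83 in shCIRC. Its target covers only the 5′ part of the gene in the deposited annotation, on chromosome 2 from 175978970 to 176032897, minus strand, whereas that of the main probe set runs from 175936987 to 176032903. ATF2 is among the genes that the study picked from these arrays for qRT-PCR, so its rise here is not independent of that choice. By qRT-PCR the study reports ATF2 as raised in shCIRC cells too. Of the genes it drew for qRT-PCR, the study names only those whose result went with the arrays.

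ATF7, the close relative of ATF2, gave no clear direction. Its main probe set had log2 signals of 8.00, 8.01 and 7.98 in shEV and 8.13, 8.01 and 8.16 in shCIRC. The groups overlapped, since shCIRC replicate 2 lay between shEV arrays, and the log2 fold change was 0.10 (95% confidence interval -0.0060 to 0.21, limma, adjusted p = 0.111). Without shCIRC replicate 2 the log2 fold change was 0.15 and passed (limma, adjusted p = 0.0137). A dimmer probe set of ATF7 moved the other way, with log2 signals of 6.52, 6.47 and 6.48 in shEV and 5.97, 5.94 and 6.13 in shCIRC, and its log2 fold change was -0.47 (limma across probe sets, adjusted p = 4.16e-04). The other 3 had 0.17, 0.03 and 0.01 and did not pass.

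Taking each probe set by itself, 10 of the 31 were called higher in shCIRC cells, 11 lower and 10 neither, against 25.6% higher and 24.6% lower over all 37458 probe sets. The 10 higher ones were all of FOS, JUNB, JUND and ATF2. The 11 lower ones were all 6 of FOSL1, 3 of JUN and 1 each of FOSL2 and ATF7.

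**Figure D2:**
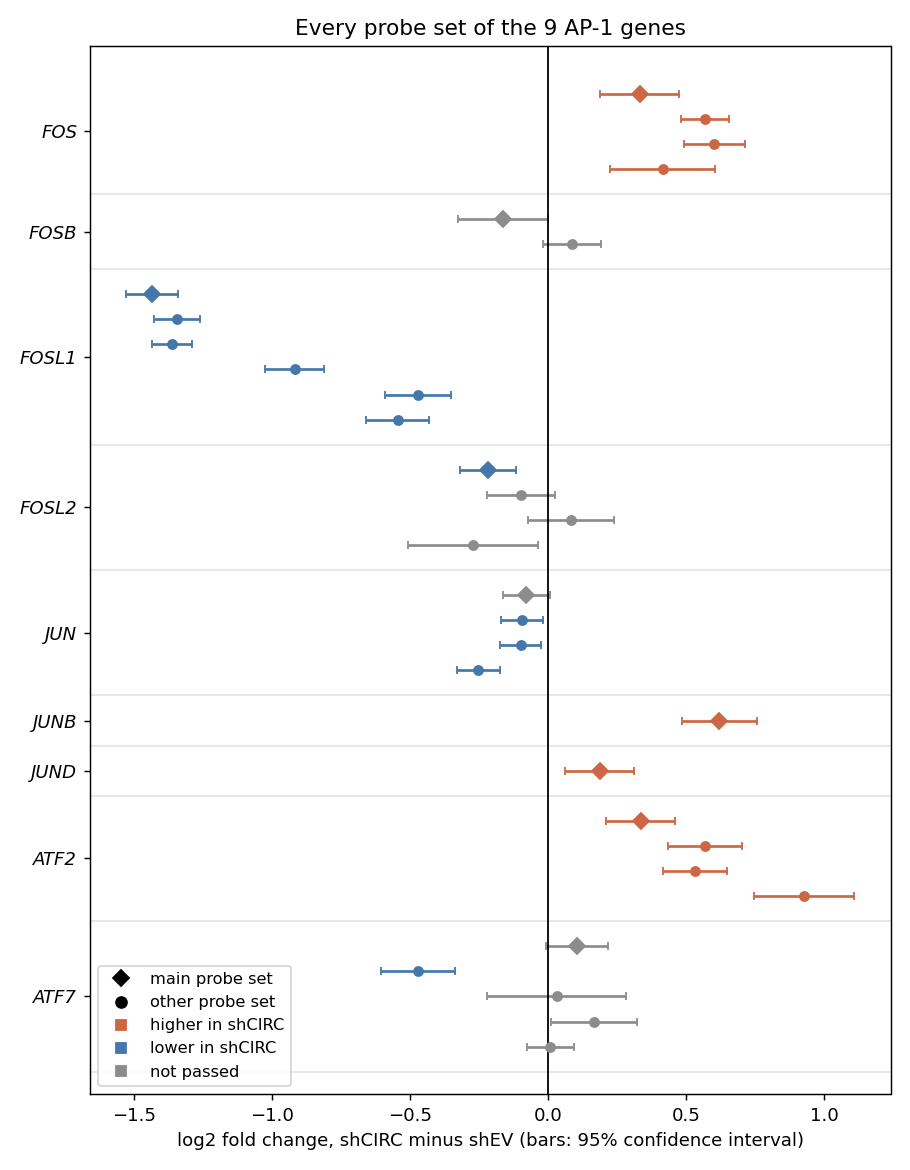
Log2 fold change, shCIRC minus shEV, of all 31 probe sets of the 9 genes, with 95% confidence intervals. Diamonds mark the main probe sets, and color marks the call over all probe sets. The 6 of FOSL1 lie between -1.44 and -0.47 and the 4 of ATF2 between 0.33 and 0.93, while those of FOSB, FOSL2 and ATF7 lie on either side of 0.

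Over the 6 arrays, the genes whose log2 signal followed FOSL1 most closely were SIAH2, TTC39C and CAPZA1 (Pearson r of 0.9997 or more). Those closest to ATF2 were PPA2, AKAP11 and PSMC6 (r of 0.9989 or more). With 2 groups of 3 arrays such values mostly restate the group difference, and 2586 and 1010 genes had r above 0.95 with FOSL1 and ATF2.

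The genes that work with the members, in lists drawn up from general knowledge, also moved in both directions. Of 21 other leucine zipper factors that can pair with or compete with AP-1, 7 were higher and 6 lower, and 8 did not pass, with a median log2 fold change of 0.04. Among all genes, 22.8% were higher and 24.7% lower. DDIT3 (CHOP) and ATF3, a pair of stress-induced factors, rose with log2 fold changes of 0.49 (SE 0.04) and 0.47 (SE 0.07). NFE2L1, which controls proteasome genes, fell with -0.59 (SE 0.04) and CREB1, the main CRE-binding factor of cyclic AMP signaling, with -0.50 (SE 0.04). All 6 probe sets of NFE2L1 and both of DDIT3 passed in the same direction, as did 6 of the 7 of CREB1 and 4 of the 5 of ATF3.

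Of 20 genes of the JNK and p38 kinase cascades, which activate JUN and ATF2, 10 were lower, 5 were higher and 5 did not pass, with a median of -0.13. Among all genes, 24.7% were lower and 22.8% higher. MAPKAPK2, the kinase directly below p38, fell with a log2 fold change of -0.85 (SE 0.03, limma, adjusted p = 4.06e-06), with log2 signals of 10.20 ± 0.02 (SD, n = 3) in shEV cells against 9.35 ± 0.02 (SD, n = 3) in shCIRC cells. MAP2K4, a kinase that phosphorylates JNK, had -0.71, but only 2 of its 4 probe sets were lower and another had 0.01. The p38 genes MAPK13 and MAPK12 rose, with 0.26 and 0.18, and 1 of the 3 probe sets of MAPK12 was lower instead, with -0.16. The number of higher genes in this list fell to 3 under several alternatives, among them leaving out shEV replicate 1, 2 or 3 or shCIRC replicate 2 or 3.

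All 9 listed phosphatases that switch MAP kinases off passed the test, 7 of them lower and 2 higher, with a median of -0.25. Over all genes, 24.7% were lower and 22.8% higher. The number of lower genes fell to 5 under several alternatives, among them leaving out shEV replicate 1, 2 or 3 or shCIRC replicate 2 or 3. For DUSP1 and for DUSP6 only 1 of 4 probe sets was lower. DUSP5, a nuclear phosphatase that acts on ERK and is induced by it, had log2 signals of 11.97 ± 0.02 (SD, n = 3) in shEV cells against 11.17 ± 0.03 (SD, n = 3) in shCIRC cells, and its log2 fold change was -0.80 (limma, adjusted p = 6.35e-06). DUSP7, a cytoplasmic ERK phosphatase, had -0.46. The 2 that rose were DUSP10 and DUSP16, which act on JNK and p38, with 0.26 and 0.16.

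Of 13 genes that modify, degrade or assist AP-1 proteins, 6 were higher and 3 lower, and 4 did not pass. Among all genes, 22.8% were higher and 24.7% lower. FBXW7, the ubiquitin ligase subunit that targets phosphorylated JUN, rose with a log2 fold change of 0.46 (SE 0.04), in all 3 of its probe sets. COPS5, a signalosome subunit first found as a JUN coactivator, rose with 0.33. The deacetylase SIRT1 fell with -0.72 (SE 0.03) and COP1, another ubiquitin ligase for JUN, with -0.19.

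The other immediate early genes and the SRF factors that regulate them did not follow FOS and JUNB as a group. Of 20, 7 were higher and 9 lower, and 4 did not pass, with a median of -0.05. Among all genes, 22.8% were higher and 24.7% lower. IER3, a stress-response gene, had the largest rise of all the lists, with log2 signals of 10.99 ± 0.02 (SD, n = 3) in shEV cells against 12.25 ± 0.02 (SD, n = 3) in shCIRC cells for a log2 fold change of 1.26 (limma, adjusted p = 2.72e-06). KLF10, a TGF-beta-induced factor, rose with 0.39. The Krüppel-like factor KLF2 and the SRF cofactor ELK3 fell, with -0.82 and -0.64.

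Of 29 measured genes that are textbook targets of AP-1, 14 were lower, 5 were higher and 10 did not pass, with a median of -0.07. Among all genes, 24.7% were lower and 22.8% higher. Some targets that did not pass were dim. MMP7, SPP1 and MMP9 had mean log2 signals of 4.82 to 4.88, under the 10th percentile of all genes (5.07). For these, no change and no expression cannot be told apart. HBEGF, a ligand of the EGF receptor, fell the most, to 32.2% of its level in shEV cells, with log2 signals of 9.38 ± 0.05 (SD, n = 3) and 7.74 ± 0.08 (SD, n = 3) in shEV and shCIRC. MMP1, a collagenase, fell to 44.7%, with 7.36 ± 0.06 (SD, n = 3) and 6.20 ± 0.09 (SD, n = 3). The neutrophil chemokine CXCL8 and the cytokine IL11 rose instead, with log2 fold changes of 0.68 (SE 0.05) and 0.36 (SE 0.03), in all 3 probe sets of each. Thus targets of the same family moved both ways. With the mean of the probe sets of a gene, 8 targets were higher in place of 5.

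**Figure D3:**
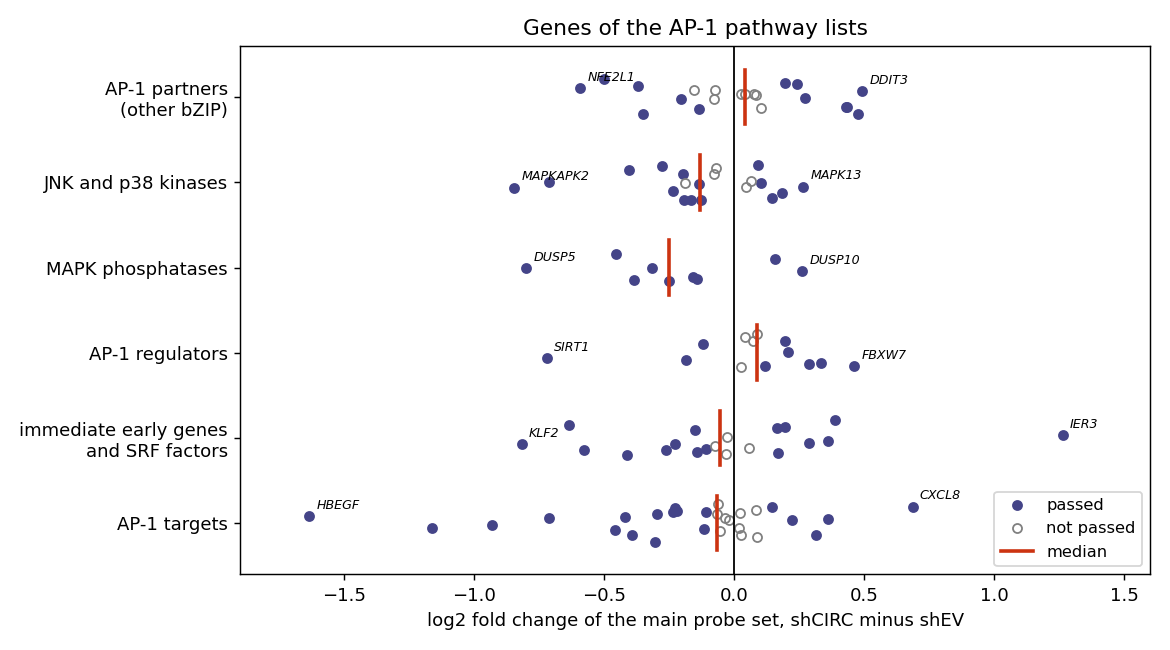
Log2 fold change, shCIRC minus shEV, of the main probe set of each measured gene in the 6 lists. Filled points passed the test, open points did not, the red bar is the median of the list, and the lowest and highest gene of each list are named. Medians lie between -0.25 for the phosphatases and 0.09 for the AP-1 regulators, and in each list genes lie on either side of 0.

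Promoter windows were found for 22 of the 32 listed targets, and 9 of these held a TRE. Shown here are the stretches of the 4 among them that passed the test, chosen after their values were seen, with the TRE in capitals.

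CXCL8, chr4:73740419-73740468, plus strand: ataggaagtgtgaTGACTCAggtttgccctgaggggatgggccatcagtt

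IL11, chr19:55370534-55370583, minus strand: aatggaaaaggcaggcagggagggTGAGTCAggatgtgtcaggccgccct

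LAMA3, chr18:23872870-23872919, plus strand: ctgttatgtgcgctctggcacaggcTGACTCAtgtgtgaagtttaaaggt

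PLAUR, chr19:43670340-43670389, minus strand: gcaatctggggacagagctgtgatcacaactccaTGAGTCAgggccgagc

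Of the 8 measured targets with a TRE, CXCL8, IL11 and LAMA3, a laminin chain, were higher, PLAUR, the urokinase receptor, was lower, and MMP7, GJA1, EZR and MT2A did not pass. For LAMA3 the log2 fold change was 0.22 (limma, adjusted p = 0.0281) at a low signal of 4.41 in shEV, and PLAUR had -0.24 (limma, adjusted p = 0.00172). Of the 13 measured targets with a window but no TRE in it, 2 were higher and 7 lower, and 4 did not pass. HBEGF is among those 13. The median log2 fold change was 0.02 with a TRE and -0.12 without, a difference that was not tested.

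Array medians were alike, between 6.82 and 6.85 on the log2 scale over the 49395 probe sets deposited, and over genes the arrays correlated with r of 0.9985 to 0.999 within and 0.9898 to 0.9904 between the groups. Of the intestinal epithelial markers, 7 of 10 were tested. KRT18, EPCAM, CDX2 and KRT8 had mean log2 signals between 7.70 and 11.25 in shEV, CDX1, KRT19 and LGR5 between 5.21 and 5.99, and CDH1, VIL1 and KRT20 were not among the tested genes. These markers did not move together: KRT8 was higher in shCIRC cells, with a log2 fold change of 0.53 and all 7 of its probe sets higher, EPCAM (-0.46) and KRT18 (-0.30) were lower, and the other 4 did not pass. The summed linear signal of the 7 markers, to which KRT18 gave the most, was 3349 to 3541 in shEV and 2926 to 3040 in shCIRC. Of the mesenchymal list 3 of 6 were tested, and their summed linear signal was 1896 to 1926 in shEV and 3070 to 3124 in shCIRC, nearly all of it from VIM (log2 fold change 0.72), while COL1A1 and COL1A2 had log2 signals of 5.12 to 6.02 in the group means. Of the immune markers, CD68, a lysosomal protein, had mean log2 signals of 13.29 in shEV and 12.06 in shCIRC (log2 fold change -1.23), and the T cell marker CD3E had 5.51 and 5.48 and did not pass. The 3 endothelial markers did not pass, with a summed linear signal of 180.1 to 188.2 in shEV and 175.0 to 193.2 in shCIRC. For the control genes, the log2 signal at the 3′ end minus that at the 5′ end, which reflects RNA integrity, was -0.16 ± 0.02 (SD, n = 3) in shEV cells against -0.30 ± 0.02 (SD, n = 3) in shCIRC cells for GAPDH, and 0.13 ± 0.02 (SD, n = 3) and -0.01 ± 0.03 (SD, n = 3) for ACTB. The part of these differences in the changes of the AP-1 genes was not tested.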

How the data were processed

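RNA of RKO cells was measured on 6 PrimeView arrays, 3 of shEV and 3 of shCIRC, grouped by the sample labels. The authors deposited log2 signals that had been quantile normalized in R, for 49395 probe sets and, annotated, for 39269 of them, exactly those whose signal passed the 20th percentile on 4 or more arrays. The submitters' processing notes name GCOS 1.4. The sources used here do not name the background correction, the probe summary or the annotation's genome build. Columns with the authors' own comparison (p-values and fold changes) were not used.

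Of 39269 probe sets, 73 controls, 1539 with several genes and 199 with none were left out. Symbols were updated by Entrez number with RefSeq of GRCh38.p14 (37380 of 37458 probe sets matched). The brightest probe set per gene gave 15894 genes, compared with limma 3.58.1 (R 4.3.3) and Benjamini-Hochberg adjustment over all genes, threshold 0.05. A further fit covered all 37458 probe sets. No background level is given with the signals, so dim probe sets may lie near background. Precision is limited by the number of arrays.

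The members and lists were chosen with earlier results of these data known. All members were named, and of each list the 2 largest rises and 2 largest falls among called genes, with the markers and GAPDH. Alternatives were other scalings, filters, probe set rules, tests and thresholds, the replicate number as a block, leaving out each array, and, chosen after seeing the data, signals relative to GAPDH. 1 marker of the immune list, and the sum over that list, are not reported here.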

Additional observations from a re-analysis of the deposited data

How the results depend on the processing

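FOSL1, FOS, JUNB and ATF2 kept their direction and their side of the threshold under 16 alternatives, and FOSL2 under 15, those relative to GAPDH apart, with log2 fold changes of -1.48 to -1.01, 0.27 to 0.48, 0.56 to 0.66, 0.29 to 0.59 and -0.25 to -0.13. With the filter on genes above the median signal, FOSL2, JUND and ATF7 were not tested. JUND lost its call in the methods' t-test once adjusted over all genes (0.19, adjusted p = 0.0667) and without some single arrays (0.16 to 0.23 over all 6). FOSB was called lower with genes above the median signal, with trend and robust, and with the replicate block (-0.17 each, adjusted p = 0.0265, 0.0280 and 0.0197 from limma). JUN was called lower after quantile normalization again (-0.10), cyclic loess (-0.12), with genes above the median signal and with trend and robust (-0.08 each), and with the mean of the probe sets of a gene (-0.13). ATF7 was called higher with array weights (0.12), ranged from 0.072 to 0.15 without each array, and changed sign with the mean of its probe sets (-0.033, adjusted p = 0.461 from limma). The cause was not tested.

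The alternative relative to GAPDH was chosen after seeing the data. It was fitted and adjusted over all genes and is reported for the 9 members alone. GAPDH itself had a log2 fold change of -0.29, and its use moved the median of all genes by 0.29. On this scale JUN (0.21), FOSB (0.13) and FOSL2 (0.0724) changed sign, ATF7 passed (0.40), and 1 member was lower. With trend and robust 4 members were lower. A fold above 1.3 left 1 member higher (JUNB) and 1 lower (FOSL1), and 1183 and 1498 of all genes. For the lists, AP-1 targets had 3 higher genes above the median signal, where IL11 and LAMA3 were not tested. With the mean of the probe sets they had 8. The kinases had 3 higher genes after quantile normalization again, cyclic loess, the mean of the probe sets and the replicate block, and 3 to 4 without each array. The phosphatases had 1 higher and 4 lower above the median signal, where DUSP4, DUSP7, DUSP8 and DUSP10 were not tested. They had 5 lower with arrays centred on their median and in the t-test. The same number was lower without shEV replicate 1, 2 or 3 or shCIRC replicate 2 or 3.

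The deviations of same-numbered arrays from their group means correlated weakly (r of 0.066, 0.086 and 0.099 over genes). Each array still correlated best with its own number, and all other pairs had negative r, from -0.083 to -0.011. The labels do not say what the numbers stand for, and a batch shared by same-numbered arrays was not tested. The replicate block gave 3591 higher and 3842 lower genes, against 3618 and 3928.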
